A study of Sus scrofa with 4 samples.

Results

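The miR-29 family, whose members miR-29a, miR-29b and miR-29c repress collagen genes, was followed through small RNA of exosomes from umbilical cord blood of newborn Yorkshire piglets. Members were rows whose name, without its species prefix and any suffix, has the number 29a, 29b or 29c. Of 664 rows in the deposited tables, 3 met this rule, 1 for each member, and all 3 carry the pig prefix and name no arm. Exosomes are vesicles shed by cells into body fluids with microRNAs (miRNAs) inside, and small RNA holds no protein by which this label could be checked. Blood was drawn at birth into EDTA from 2 vessels of the cord, the vein, which supplies the fetus with blood from the placenta, and the artery, which carries fetal blood back. Piglets with intrauterine growth restriction (IUGR) were set against normal littermates. There were 4 libraries, IUGR vein, normal vein, IUGR artery and normal artery, each made from a pool of 3 piglets, so each condition within a vessel has 1 library and no replicate. The labels give the vessel of each library, and its condition was read from the letters I and N of the table columns.

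miRNAs guide silencing proteins to messenger RNAs that pair with the seed, bases 2 to 8 of the miRNA, and so lower the output of those messages. The miR-29 family is known for repressing the genes of fibrillar collagens and other matrix proteins such as elastin and fibrillin, and for falling in fibrotic tissue. In the vessel wall it has been studied as a brake on matrix deposition. The members are transcribed from pairs of neighbouring genes. In RefSeq's annotation of the pig genome Sscrofa11.1, MIR29A and MIR29B-1 are neighbours with 0 genes between them, and so are MIR29C and MIR29B-2, while mature miR-29b comes from both pairs and its row cannot tell them apart.

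The deposited sequences are printed because they show what the family shares and how little separates its members, with the seed in capitals.
miR-29a: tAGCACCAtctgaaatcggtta
miR-29b: tAGCACCAtttgaaatcagtgtt
miR-29c: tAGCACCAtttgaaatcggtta
The seed was the same in all 3 rows, and no other row of the 664 held it at those bases or anywhere else in its sequence. Counted from 1 at the 5′ end of the deposited sequences, miR-29a and miR-29c differ by a single substitution, C10T, so assigning a read to one or the other rests on 1 base. miR-29b differs from miR-29a by C10T, G18A, T21G and A22T and is 1 base longer. Reads that fit several rows had been split by the authors into fractions, which is why some read numbers below are not whole.

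The tables held 16218 reads for IUGR vein, 40691 for normal vein, 20144 for IUGR artery and 13749 for normal artery. Rows whose names begin with PC- give no miRNA number and took 55.8%, 13.2%, 38.8% and 45.3% of these, in the same order. Levels below are shares of the reads in all other rows, which numbered 7175, 35317, 12327 and 7527. Each share and ratio has an exact 95% interval that covers counting error only, since amplified reads without molecular identifiers are not independent molecules, and no interval covers the spread between piglets or pools. A change in a share can reflect fewer vesicles from a source, less of the miRNA in each vesicle or a shift in the other miRNAs of the denominator. A share alone cannot tell these apart.

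miR-29a, the most abundant member, had 16 reads in IUGR vein, 48 in normal vein, 78.75 in IUGR artery and 17.5 in normal artery. Its shares were 0.223% (0.128 to 0.362%) in IUGR vein, 0.136% (0.10 to 0.18%) in normal vein, 0.639% (0.508 to 0.798%) in IUGR artery and 0.232% (0.142 to 0.378%) in normal artery. IUGR artery stood highest, and its interval did not overlap those of the other libraries. The intervals of IUGR vein, normal vein and normal artery overlapped, so their order was not resolved at this depth.

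miR-29b had 1.5 reads in IUGR vein, 4.5 in normal vein, 53.25 in IUGR artery and 3 in normal artery. Its shares were 0.0209% (0.00338 to 0.101%) in IUGR vein, 0.0127% (0.00460 to 0.0330%) in normal vein, 0.432% (0.322 to 0.562%) in IUGR artery and 0.0399% (0.00822 to 0.116%) in normal artery. miR-29b was thus near the limit of detection in every library except IUGR artery, where its interval lay above all the others. For scale, 3 counts correspond to 0.0418%, 0.00849%, 0.0243% and 0.0399% in the same order.

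miR-29c had 2 reads in IUGR vein, 10 in normal vein, 76.75 in IUGR artery and 4.5 in normal artery. As shares these were 0.0279% (0.00338 to 0.101%) in IUGR vein, 0.0283% (0.0136 to 0.0521%) in normal vein, 0.623% (0.493 to 0.780%) in IUGR artery and 0.0598% (0.0216 to 0.155%) in normal artery. Again IUGR artery stood alone, and the other libraries overlapped. Summed, the family took 0.272% (0.170 to 0.430%) of reads in IUGR vein, 0.177% (0.137 to 0.228%) in normal vein, 1.69% (1.47 to 1.94%) in IUGR artery and 0.332% (0.215 to 0.490%) in normal artery.

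**Figure D1:**
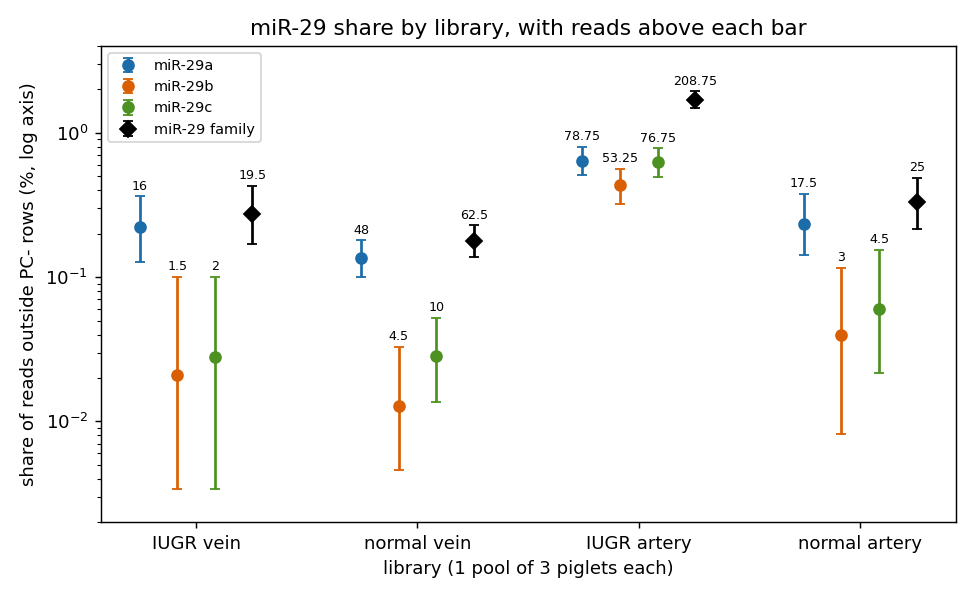
Share of reads outside PC- rows (%, log axis) for miR-29a, miR-29b, miR-29c and their sum in the 4 libraries, with exact 95% counting intervals as bars and the number of reads printed above each. In IUGR artery the members lie between 0.432% and 0.639%, above their shares in the other libraries.

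Ranked by reads among all mature miRNA names with a read in the library, miR-29a was 53 of 249 in IUGR vein, 64 of 358 in normal vein, 29 of 221 in IUGR artery and 56 of 278 in normal artery. miR-29c ranked 130 in IUGR vein, 136 in normal vein, 31 in IUGR artery and 117 in normal artery. miR-29b ranked 151, 176, 41 and 129, in the same order.

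The make-up of the family differed between IUGR artery and the other libraries. This measure needs no scaling, since it compares members within a library. miR-29a made up 82.1% (56.3 to 94.3%) of family reads in IUGR vein, 76.8% (63.8 to 86.0%) in normal vein, 37.7% (31.2 to 44.7%) in IUGR artery and 70.0% (50.6 to 87.9%) in normal artery. miR-29c made up 10.3%, 16%, 36.8% and 18%, and miR-29b 7.69%, 7.2%, 25.5% and 12%, in the same order.

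Within libraries, miR-29a exceeded miR-29c 8.0-fold in IUGR vein, 4.8-fold in normal vein and 3.89-fold in normal artery, each beyond counting error. In IUGR artery this pair was level, with miR-29a at 50.6% of the reads of this pair (42.5 to 58.7%). miR-29c exceeded miR-29b beyond counting error in IUGR artery only, 1.44-fold, and the interval of this pair included equal parts in the other libraries.

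Per read of miR-29a there were 1.65 reads of miR-29b and miR-29c together in IUGR artery, against 0.429 in normal artery. The ratio of these was 3.85, with a counting interval of 1.44 to 10.3. miR-29b and miR-29c moved alike against miR-29a, by 3.94 (1.09 to 22.2) and 3.79 (1.17 to 12.6). In vein the same measure was 0.219 in IUGR and 0.302 in normal, a ratio of 0.724 whose interval of 0.169 to 3.04 included no difference.

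**Figure D2:**
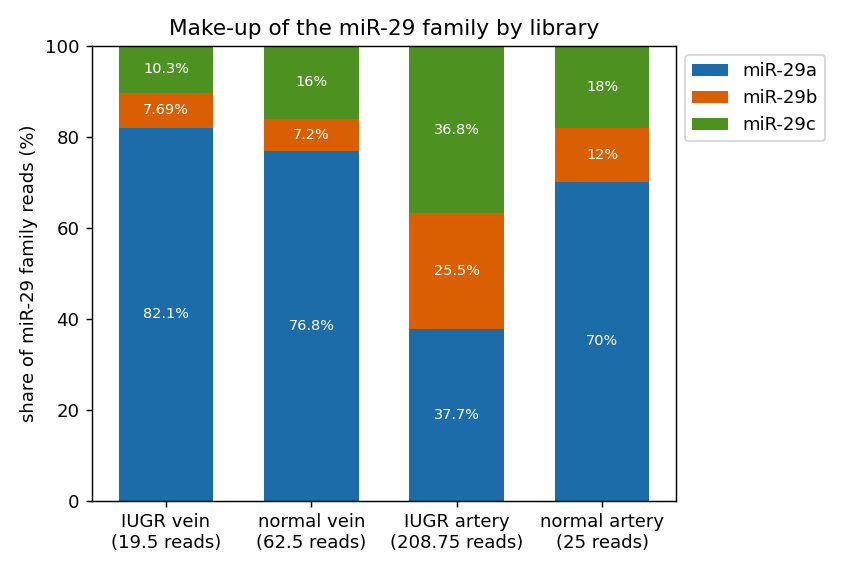
Share of miR-29 family reads (%) taken by each member in the 4 libraries, with the family's reads under each bar. miR-29a takes 70.0 to 82.1% in IUGR vein, normal vein and normal artery and 37.7% in IUGR artery.

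IUGR was compared with normal within each vessel, the question named in the series design. In artery the family share was 5.10-fold higher in IUGR, with a log2 ratio of 2.35 (1.75 to 3.01). miR-29b was 10.8-fold higher, at a log2 ratio of 3.44 (1.81 to 5.75), on 53.25 IUGR reads against 3 normal ones. miR-29c was 10.4-fold higher, at 3.38 (1.95 to 4.90), and miR-29a 2.75-fold higher, at 1.46 (0.67 to 2.25). All 3 members were thus past 2-fold, in a comparison in which 41.7% of the 127 rows with at least 10 reads were 2-fold or more higher and 40.9% lower, with a median log2 ratio of 0.40. In descending order of log2 ratio, miR-29b was 9 of 127 rows, miR-29c was 10 and miR-29a was 47. Rows with 0 reads were set to 3 counts, as many as miR-29b had in normal artery. A row with 0 reads there could thus rank below miR-29b by this rule alone.

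In vein the family share was 0.272% in IUGR against 0.177% in normal, a log2 ratio of 0.62 whose interval of -0.16 to 1.39 included no difference. It turned to -0.35 (-1.13 to 0.42) when all reads, PC- rows included, were the denominator, and to -0.38 with the authors' normalized values. miR-29a had a log2 ratio of 0.71 (-0.20 to 1.56) and miR-29c of -0.02 (-3.25 to 2.21). miR-29b, with 1.5 and 4.5 reads, fell short of the 10 reads asked of a row, and its interval of -2.42 to 3.59 leaves its direction unresolved. Neither of the members with 10 reads was 2-fold apart in vein, where 22.7% of 154 rows were higher in IUGR and 20.8% lower, and the median log2 ratio was 0.10.

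The IUGR to normal ratio of the family was 3.32-fold larger in artery than in vein, a difference of 1.73 on the log2 scale with a counting interval of 0.70 to 2.73. For miR-29c the difference was 3.40 (0.44 to 6.64). For miR-29a it was 0.74 and for miR-29b 2.72, and their intervals, of -0.48 to 1.92 and -0.91 to 6.12, included no difference. The size of the family difference moved with the denominator. It was 0.89 (-0.15 to 1.88) when the reads of the erythroid list described with the marker miRNAs were left out, an interval that includes no difference, and 2.86 (1.83 to 3.86) with all reads. Without the erythroid list that of miR-29c was 2.56 (-0.41 to 5.79), which also includes no difference. The interval of miR-29a lay above 0 with all reads, at 1.88 (0.65 to 3.05), with the authors' normalized values, with median ratio size factors and without the liver list (led by miR-122), and that of miR-29b with all reads and with median ratio size factors. With 1 pool per condition and vessel no test across pools could be made.

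Vein and artery were compared within each condition. Among IUGR piglets the family was 6.23-fold lower in vein, at a log2 ratio of -2.64 (-3.35 to -1.94). miR-29c was 22.3-fold lower at -4.48 (-7.56 to -2.58), miR-29b 20.7-fold lower at -4.37 (-7.03 to -2.02) and miR-29a 2.86-fold lower at -1.52 (-2.40 to -0.74). All 3 were past 2-fold lower, as were 40.3% of 124 rows, while 38.7% were 2-fold or more higher, and the median log2 ratio was -0.39. Without the erythroid list in the denominator miR-29a was no longer past 2-fold, at -0.42 with an interval of -1.30 to 0.36 that includes no difference, while miR-29b was at -3.27 and miR-29c at -3.39. Only 3 of the 124 rows had a lower log2 ratio than miR-29c. Rows with 0 reads were set to 3 counts, while miR-29c kept its 2 IUGR vein reads and miR-29b its 1.5. A row with 0 reads in IUGR vein could thus rank above them by this rule alone. This comparison shares the IUGR artery library with the IUGR to normal comparison in artery.

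Among normal piglets the family was 1.88-fold lower in vein, at -0.91 (-1.59 to -0.17). Single members did not pass counting error. miR-29a had a log2 ratio of -0.77 (-1.62 to 0.05), miR-29c of -1.08 (-2.91 to 0.67) and miR-29b, with 7.5 reads in all, of -1.65 (-3.85 to 1.19). Of the members with at least 10 reads, miR-29c was past 2-fold lower, as were 29.3% of 157 rows, while 12.1% were higher. The interval of the family ratio reached past 0 with all reads as the denominator, where it was -0.24 (-0.92 to 0.50), and also with the authors' normalized values, with median ratio size factors and without the erythroid list.

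Taking the IUGR and normal libraries as the replicates of each vessel, vein was tested against artery over the whole table with edgeR's quasi-likelihood test. A difference between conditions thus counts as spread between replicates in this test. No row of 195 passed a Benjamini-Hochberg adjusted p of 0.05 (0% called), 15 rows, or 7.69%, had an unadjusted p under 0.05, and DESeq2 called 2. In this edgeR fit the log2 ratio of vein over artery was -1.14 ± 1.34 (SE) for miR-29a, with an adjusted p of 0.809. It was -3.53 ± 1.74 for miR-29b and -3.38 ± 1.65 for miR-29c, each with an adjusted p of 0.493. The median over the 195 rows was 0.35. The values rest on IUGR artery. Without that library they were -0.20 for miR-29a, -0.99 for miR-29b and -0.62 for miR-29c, with adjusted p of 0.998 by edgeR for each. Without normal artery, which leaves IUGR artery as the lone artery library and assumes that it varies as the vein libraries do, edgeR gave -5.13 for miR-29b and -4.88 for miR-29c, with adjusted p of 0.000394 and 0.000875, and 66 rows were called.

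**Figure D3:**
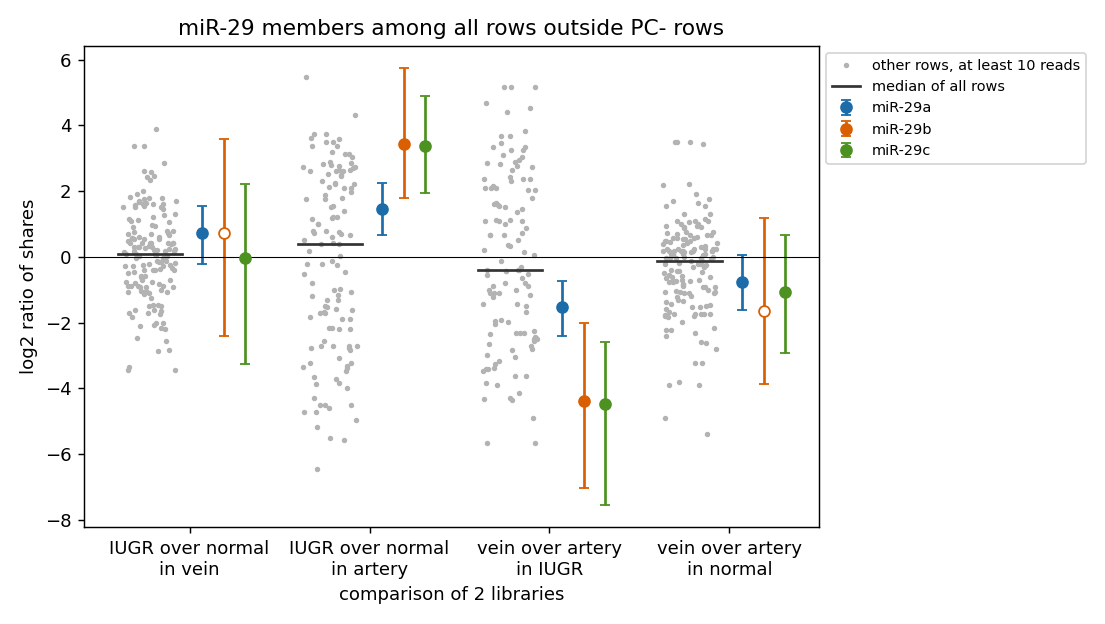
log2 ratio of shares in the 4 comparisons of 2 libraries for each member, with exact 95% counting intervals, beside all other rows with at least 10 reads (grey points) and the median of all rows (line). Open circles mark a member under 10 reads, and in artery miR-29b and miR-29c lie at 3.44 and 3.38 in IUGR over normal, against a median of 0.40.

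Marker miRNAs of other sources moved between the same libraries. The erythroid list, led by miR-451 of red blood cells, took 58.9% of reads in IUGR vein, 62.4% in normal vein, 12.1% in IUGR artery and 55.3% in normal artery, with all 8 of its numbers detected in each. It held miR-451, miR-144, miR-486, miR-92a, miR-25, miR-16, miR-15a and miR-15b. In vein the pig-named rows of miR-451 and miR-144 had log2 ratios of IUGR over normal of 0.27 and 0.67. Those of miR-486, miR-92a, miR-16, miR-15a and miR-15b were -0.84, -1.04, -0.36, -0.16 and -0.76. In artery these rows all had negative log2 ratios. miR-451 alone took 43.3% in IUGR vein, 35.9% in normal vein, 8.66% in IUGR artery and 32.0% in normal artery. The liver list, led by miR-122 of hepatocytes, took 2.65%, 0.207%, 32.8% and 2.64%, in the same order, with 5 or 6 of its 6 numbers detected. The endothelial marker miR-126 took 1.67%, 0.657%, 2.43% and 0.810%. The smooth muscle pair miR-143 and miR-145 took 4.26%, 1.55%, 2.26% and 1.28%. Platelet and myeloid markers took 4.82%, 7.16%, 2.12% and 5.96%, and striated muscle markers 0.325%, 0.325%, 0.112% and 0.332%. The platelet and myeloid markers did not all move alike. In artery miR-142-3p had a log2 ratio of IUGR over normal of 1.80. Those of miR-223-3p, miR-191, miR-21, miR-23a and miR-142-5p were -3.07, -3.39, -1.82, -1.30 and -0.21. The part of these sources in the miR-29 levels was not tested.

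The denominator decided how far miR-29a moved. When the reads of the erythroid list were also left out of it, the family took 0.661% (0.414 to 1.04%) in IUGR vein, 0.470% (0.364 to 0.606%) in normal vein, 1.93% (1.68 to 2.21%) in IUGR artery and 0.742% (0.481 to 1.09%) in normal artery. The log2 ratio of IUGR over normal in artery was then 1.38 (0.78 to 2.04) for the family, 2.46 (0.83 to 4.78) for miR-29b and 2.41 (0.97 to 3.92) for miR-29c. For miR-29a it was 0.48, with an interval of -0.30 to 1.27 that included no difference. With the liver list left out as well, a setting added after the data were seen, the ratios were 1.96 (1.36 to 2.62) for the family and 1.07 (0.28 to 1.86) for miR-29a.

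**Figure D4:**
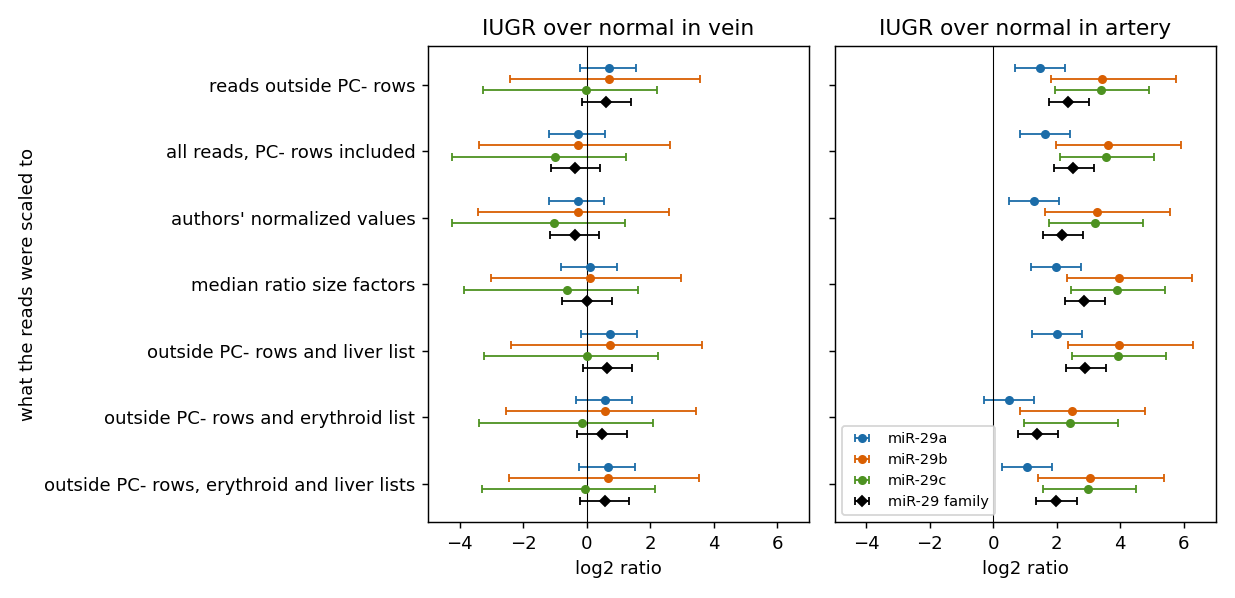
log2 ratio of IUGR over normal in vein (left) and artery (right) for each member and the family under 7 scalings, with exact 95% counting intervals. In artery miR-29b and miR-29c stay above 0 in every one, while the interval of miR-29a includes 0 when the erythroid list is left out.

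The IUGR to normal ratio of the miR-29 family lay below that of miR-122 in both vessels. miR-122 was 12.2-fold higher in IUGR in artery, at 21.8% against 1.78% of reads, and 15.2-fold higher in IUGR in vein, at 1.94% against 0.127%. Its log2 ratios were 3.61 (3.36 to 3.87) in artery and 3.93 (3.43 to 4.45) in vein. The upper bounds for the family, 3.01 in artery and 1.39 in vein, lay below the lower bounds for miR-122. In artery the intervals of miR-29b and miR-29c included the ratio of miR-122, and that of miR-29a lay below it.

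Other miRNAs tied to fibrosis and extracellular matrix were followed as a list of 31 numbers. Most of them restrain fibrosis, such as the miR-30 and let-7 families, miR-133, the miR-200 family, miR-26, miR-101 and miR-24, and others promote it, such as miR-21, miR-199a and miR-192. In artery, 11 of 23 measured numbers were 2-fold or more higher in IUGR and 5 lower, with a median log2 ratio of 0.90. Of all rows measured in artery, 41.7% were higher and 40.9% lower, and their median was 0.40, so the share of the list that was higher was near the background. In vein, 11 of 22 were higher in IUGR and none lower, with a median of 0.92, while of all rows in vein 22.7% were higher and 20.8% lower, and their median was 0.10. Among IUGR piglets 12 of 23 were lower in vein than in artery and 5 higher, with a median of -1.03, beside 40.3% of all rows lower, 38.7% higher and a median of -0.39. Among normal piglets 15 of 22 were lower in vein and none higher, with a median of -1.51, beside 29.3% of all rows lower, 12.1% higher and a median of -0.11. By part, restraining then promoting, those higher in IUGR were 9 of 19 and 2 of 4 in artery, with 4 and 1 lower. In vein they were 9 of 18 and 2 of 4, with 0 lower in either part. Lower in vein than in artery were 10 of 19 and 2 of 4 among IUGR piglets, with 3 and 2 higher. Among normal piglets these were 12 of 18 and 3 of 4, with 0 higher. The list is counted by miRNA number, summed over arms and end variants, and the background by single rows.

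At the top of this list in artery stood miR-192, which is also a liver miRNA and was 13.5-fold higher in IUGR, at 3.94% against 0.292% of reads. miR-30e was 12-fold higher, at 6.38% against 0.531%. The lowest in artery were let-7d, 5.40-fold lower in IUGR with 3.33 reads against 11, and miR-24, 4.53-fold lower with 8.5 against 23.5. In vein the highest were miR-192, 10.7-fold, and let-7c, 7.17-fold higher in IUGR, and the lowest, miR-30b at -0.27 (-0.95 to 0.37) and miR-133b at -0.19 (-3.12 to 2.40), had intervals that included no difference.

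Between vessels of IUGR piglets the ends of the list were miR-200a, 21-fold lower in vein with 1 read against 36, and miR-30e, 19.1-fold lower. let-7d and miR-24 were 4.64-fold and 4.45-fold higher in vein. Among normal piglets miR-192 was 9.38-fold and let-7a 5.71-fold lower in vein, while miR-133a, at a log2 ratio of 0.32 (-0.58 to 1.33), and miR-30b, at 0.00 (-0.56 to 0.63), stood at the upper end. For IUGR over normal in artery, the values of miR-29b and miR-29c, 3.44 and 3.38, lay near those of miR-192 and miR-30e, 3.75 and 3.59. The intervals of miR-29b and miR-29c, 1.81 to 5.75 and 1.95 to 4.90, include the values of miR-192 and miR-30e. Their order was thus not resolved at this depth.

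The miRNAs whose pattern over the 4 libraries was most like that of the family sum were sought among 107 mature names with at least 40 reads, as the root mean square difference of log2 shares centred on each miRNA's own mean. The nearest was miR-148b-3p, at 0.21, followed by miR-100 at 0.22, miR-22-3p at 0.23, miR-142-3p at 0.32 and miR-30c-5p at 0.36, where the median of all names was 1.59. miR-148b-3p took 0.216% of reads in IUGR vein, 0.181% in normal vein, 1.76% in IUGR artery and 0.246% in normal artery. miR-100 took 0.425%, 0.20%, 2.51% and 0.365%, and miR-22-3p 0.753%, 0.617%, 3.85% and 0.810%. All 5 were highest in IUGR artery, which follows from how they were picked, since the family sum is itself highest there. The points share 4 libraries and their depths, so the likeness is a description of these libraries. Among its own members, miR-29a lay 0.45 from the family sum, miR-29c 0.57 and miR-29b 0.64.

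**Figure D5:**
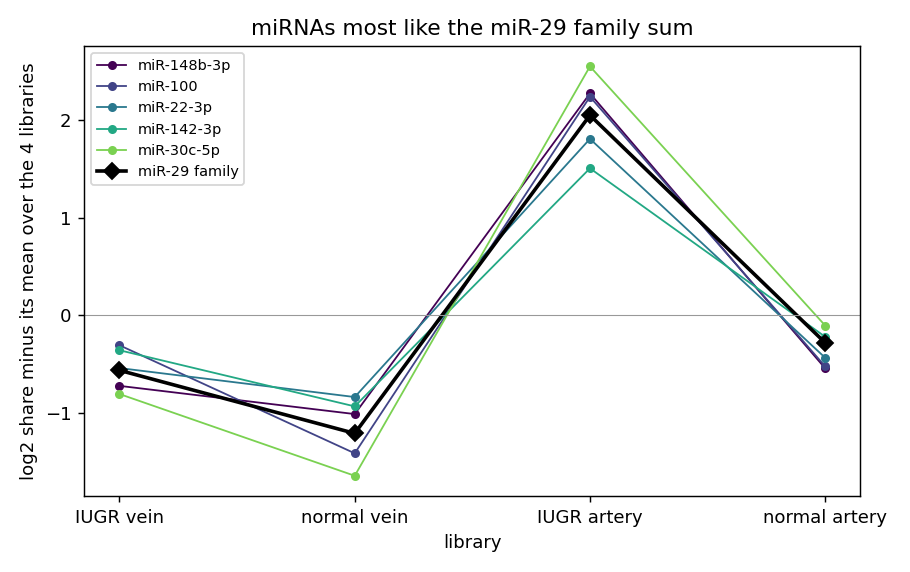
log2 share of reads minus its mean over the 4 libraries for the miR-29 family sum (black) and the 5 mature miRNAs nearest to it. The family lies at 2.05 in IUGR artery and between -1.20 and -0.28 in the other libraries.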

How the data were processed

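The libraries were prepared with a TruSeq small RNA kit, and single reads of 36 bases were taken, per the labels' protocols. The submitters' processing notes name the build Sscrofa10.2. The aligner and counting method were not given in the sources used here. Of the 4 tables of 2 libraries each that the authors deposited, the raw columns are estimated counts by their headers and values. Some values in these raw columns are fractions. The normalized columns deposited beside them are a signal, the counts times 1 factor per library set by the authors, and entered 1 alternative only. A further 4 normalized columns that repeat these libraries were not used. The letter J stands in the columns of the vein table and D in those of the artery table. The authors' fold and p-value columns were not used.

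Rows with the same name and sequence were merged across tables, with 0 where a table lacked one. Intervals are exact binomial (Clopper-Pearson) for shares, exact conditional binomial for ratios of shares and exact conditional for ratios between members, on reads rounded to whole numbers (SciPy 1.17.1, Python 3.11.15). A row counted toward the background of a comparison with at least 10 reads in its 2 libraries, where 0 reads were set to 3 counts, and was called at 2-fold. Vein and artery were tested on rounded counts outside PC- rows with at least 10 reads over the 4 libraries by edgeR 4.0.16 (TMM, limma 3.58.1, R 4.3.3), with DESeq2 1.42.0 as an alternative. The p-values measure the spread between the 2 libraries of each vessel, 1 IUGR and 1 normal. Any difference between conditions is part of that spread. The interval for ratios of shares was tried on simulated whole reads with counting error only. The edgeR fit was tried on counts simulated with a smaller dispersion than the 0.826 fitted here. Neither trial shows performance at the spread of these data.

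The members, lists and tests were chosen with earlier results of these data known. Named miRNAs were the members, the 5 nearest in pattern (0.5 reads added), the 2 highest and 2 lowest of the fibrosis list per comparison with at least 10 reads, summed by miRNA number over arms and end variants, and miR-122 and miR-451. Gene neighbours come from RefSeq's table of Sscrofa11.1, in which 4 miR-29 genes matched.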

Additional observations from a re-analysis of the deposited data

Results flagged for a closer look

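The log2 ratio of IUGR over normal for miR-29c was 3.38 in artery and -0.023 in vein, values of unlike sign, and the vein value could not be told from 0 at this depth. The difference was not tested across pools, since each condition has 1 library per vessel. The vein value rests on 2 reads in IUGR and 10 in normal, and its counting interval of -3.25 to 2.21 includes either direction. Leaving the liver list out of the denominator turned it to 0.013.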

How the results depend on the processing

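Of 32 values of the 4 family ratios under other scalings and read rules, 28 stayed within the counting interval of the reported value. In vein, IUGR over normal became -0.35 with all reads as the denominator and -0.38 with the authors' normalized values. Leaving out the erythroid list gave 1.38 for IUGR over normal in artery and -1.54 for vein over artery in IUGR. Of 96 values for single members, 92 stayed within their intervals. The exceptions were those of miR-29a under the same settings. The intervals of miR-29b and miR-29c are wide, in vein -2.42 to 3.59 and -3.25 to 2.21 for IUGR over normal. Their values could thus hardly fall outside. For the artery minus vein difference of the family, all reads gave 2.86, median ratio size factors 2.84 and leaving out the erythroid list 0.89, settings applied to this difference after the data were seen. Median ratio size factors gave 0.02 for the family in vein. Using the most abundant row of each member could change nothing, since each member has 1 row, yet its values are among those counted as staying within the intervals.

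In the vein against artery test, edgeR called 0 of 195 rows, DESeq2 2, and edgeR with the condition (normal or IUGR) as a block 1, and no miR-29 member passed in any of these. Deviations from the vessel means correlated at 0.52 between the vein and artery libraries of a condition. With 2 libraries per vessel these deviations hold only the IUGR to normal difference. The correlation therefore cannot show whether the same piglets were pooled for both vessels. The sample numbers of the labels could not be tied to the conditions, so the block rests on column letters. Leaving out 1 library gave between 0 and 66 calls. With a minimum of 20 reads, 29 rows in place of 48 were at least 2-fold higher in vein among IUGR piglets. In the other direction, 42 in place of 50 were at least 2-fold lower. The numbers of reads for miR-29b and miR-29c, 1.5 to 10 outside IUGR artery, limit every ratio that uses them.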

Other observations

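Outside the 3 members, the only other row with the number 29 and a letter was the bovine-named miR-29d-5p, with 1 read in normal vein and 0 in IUGR vein, IUGR artery and normal artery. It does not hold the miR-29 seed.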
